A study of Mus musculus with 2 samples.

Results

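Genes of voltage-gated and related ion channels were examined in regenerating mouse muscle: all potassium channel genes named Kcn, sodium channel genes named Scn with a digit, calcium channel genes named Cacn, and the chloride channel gene Clcn1. They were chosen by symbol, from probe sets annotated to exactly 1 symbol, and the probe set with the highest mean was taken for each gene. This gave 128 genes of 19938 in the table. The symbols also cover potassium channels that are not gated by voltage, auxiliary subunits, a few interacting proteins and 3 opposite-strand RNAs, so the set is wider than voltage-gated channels alone.

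A labelled Mef2a knockout pool (Mef2a -/-) was compared with a wild type pool (Mef2a +/+). Both were tibialis anterior muscle of 129Sv/C57BL6 mice aged 2 to 4 months, of both sexes, injured in the right leg with cardiotoxin (50 µl at 10 µM), a venom peptide that kills fibres, and collected on day 7. Each pool is thus injured and rebuilding tissue, and no uninjured muscle was analysed here. RNA of 5 mice was pooled per genotype and measured on 1 array, so no value below has a replicate error, an SD or a p-value. The labels do not describe the knockout allele. Mef2a itself read 9.06 in the labelled knockout pool and 8.92 in the wild type pool (log2 units, 1 probe set). The genotype labels are therefore not checked by the gene they name, the position of its probes relative to the deletion not being given in the sources used here, and each direction below rests on the labels. The tissue label held against its markers: all 25 sarcomere and energy genes of the adult fibre reached the floor defined below, with values from 8.26 to 12.52 in the labelled knockout pool and from 8.76 to 12.56 in the wild type pool.

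A muscle fibre is set off by an action potential. Sodium channels raise it, potassium channels end it, and the chloride channel holds the membrane near rest. In the transverse tubules the action potential is read by the voltage sensor, a calcium channel complex that opens the calcium release channel of the sarcoplasmic reticulum by direct contact. Other cells of injured muscle use other members of the same families: macrophages and lymphocytes use calcium-activated and voltage-gated potassium channels to keep the membrane negative during calcium entry, and vessels use ATP-sensitive and large-conductance potassium channels to set their tone. MEF2 factors bind an AT-rich sequence, the MEF2 motif, near many muscle genes, often with E-boxes that bind myogenic factors nearby.

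The promoters of 3 genes are shown: Kcnc4 and Kcnn4 had the largest difference in either direction, and the Clcn1 window was the only one, among the windows of channel genes at the floor, with a MEF2 motif. Any part of these sequences in the differences was not tested. Each is the 250 bases before the RefSeq transcription start, in the direction of the gene, in build GRCm38.p6. Capitals mark matches to the MEF2 motif (1, in Clcn1) and to the E-box motif CANNTG, both of which read alike on the 2 strands.
Kcnc4 (chr3:107458899-107459148, minus strand): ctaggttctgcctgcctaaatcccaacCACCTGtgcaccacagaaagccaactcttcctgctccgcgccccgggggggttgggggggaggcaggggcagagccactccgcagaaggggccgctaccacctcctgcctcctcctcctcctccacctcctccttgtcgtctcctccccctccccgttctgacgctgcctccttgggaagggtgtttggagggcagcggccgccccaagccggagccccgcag
Clcn1 (chr6:42286435-42286684, plus strand): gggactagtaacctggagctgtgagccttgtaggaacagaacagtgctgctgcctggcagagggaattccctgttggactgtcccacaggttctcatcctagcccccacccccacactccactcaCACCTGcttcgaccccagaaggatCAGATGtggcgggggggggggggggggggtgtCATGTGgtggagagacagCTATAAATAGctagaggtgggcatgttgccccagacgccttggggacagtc
Kcnn4 (chr7:24370013-24370262, plus strand): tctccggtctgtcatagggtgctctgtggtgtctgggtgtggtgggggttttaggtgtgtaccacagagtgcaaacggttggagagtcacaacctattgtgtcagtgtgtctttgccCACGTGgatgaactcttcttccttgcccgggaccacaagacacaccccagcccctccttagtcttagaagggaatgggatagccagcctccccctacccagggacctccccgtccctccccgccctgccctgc

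In the Clcn1 window the MEF2 motif ran from -51 to -42 relative to the start, and E-boxes began at -125, -101 and -69. The Kcnc4 window held 1 E-box, at -223, and no MEF2 motif. The Kcnn4 window held 1 E-box, at -133, and no MEF2 motif. Of the 128 channel genes, 98 had a promoter in the RefSeq table, with 133 windows in all, since 23 genes had more than 1. A MEF2 motif was present in 3 of these 133 windows (2.26%), against 959 of all 32851 windows (2.92%). The other 2 were those of Kcnj9 and Kcnj16, which lay below the floor and are named here after their promoters were searched. An E-box was present in 89 of the 133 windows (66.9%), against 66.2% of all windows. The 9 genes found below to be lower by 1.5-fold or more had 9 windows, of which 1 held a MEF2 motif and 7 an E-box. A match is a run of letters and not evidence of binding, and these windows do not reach enhancers or regions farther upstream.

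Values are log2 units of the authors' normalised array signal. A gene was taken as at the floor when the higher of its 2 values reached 4.40, the median over both columns of the table, and 46 of the 128 channel genes did. Of these, 44 reached it in both pools, and Kcng4 and Kcne1l in the wild type pool alone, so that these 2 could enter only as lower genes. Just at or above the floor lay Kcnj14 (4.41 in the labelled knockout pool, 4.40 in the wild type pool) and Kcnj15 (4.40 in the labelled knockout pool, 4.42 in the wild type pool), and just below it Kcna2 (4.25 in the labelled knockout pool, 4.39 in the wild type pool). Each difference is the log2 value of the labelled knockout pool less that of wild type. Their robust SD (from the median absolute deviation) over all genes at the floor was 0.28, which is scatter between genes on 2 arrays and not replicate error. Levels of different genes are not compared, since each probe set has its own response.

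**Figure D1:**
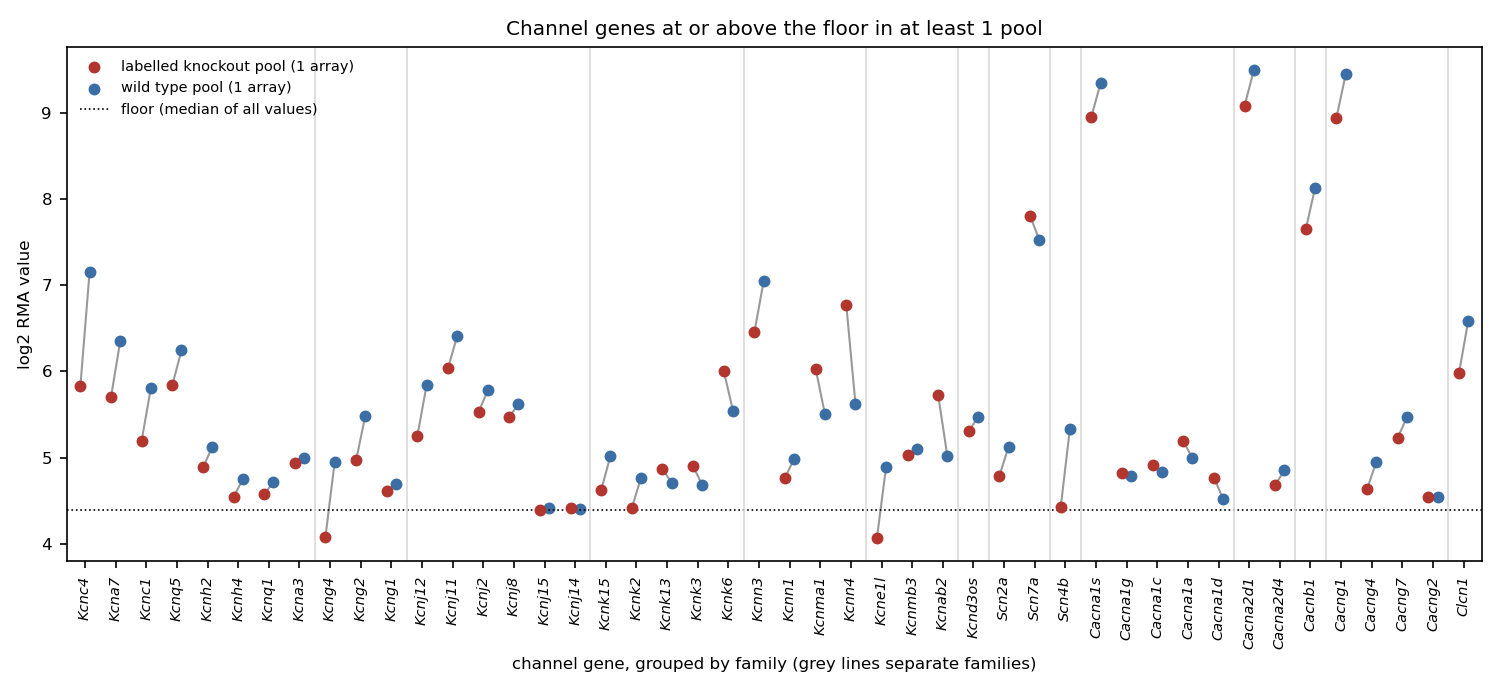
Log2 RMA value (vertical axis) of each of the 46 channel genes at the floor, grouped by family along the horizontal axis, with the labelled knockout pool (red, left) joined to the wild type pool (blue, right). Each point is 1 array of pooled RNA with no error bar, the dotted line is the floor of 4.40, and Kcnc4 has the longest line downward to the knockout point and Kcnn4 the longest upward.

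More channel genes were lower than higher in the labelled knockout pool. Of the 46 at the floor, 9 (19.6%) were lower by 1.5-fold or more, where 1.90% of all 11787 genes at the floor were, and 2 (4.35%) were higher by as much, where 6.45% of all genes were. Without Kcng4 and Kcne1l, on genes that reached the floor in both pools, 7 of 44 (15.9%) were lower by 1.5-fold or more (background 1.46%) and 2 (4.55%) higher (background 5.98%). At 2-fold, 1 was lower (background 0.187%) and 1 higher (background 1.70%). By any amount, 33 were lower (71.7%, background 44.5%) and 12 higher (26.1%, background 53.3%), and Cacng2 read the same on both arrays. The median difference was -0.23, against 0.03 over all genes at the floor. Over all 128 genes, with no floor, it was -0.15, against -0.03 over all 19938 genes, and 86 were lower (67.2%, background 52.8%) and 35 higher (27.3%, background 41.3%). Without the floor, 16 of 128 were lower by 1.5-fold or more (12.5%, background 3.10%) and 2 higher (1.56%, background 4.25%), and past 2-fold there was still 1 each way (backgrounds 0.216% lower and 1.05% higher). Among genes whose mean level was under 6, 5 of 34 channel genes were lower by 1.5-fold or more (background 2.55%) and 1 higher (background 5.33%). These 5 include Kcng4 and Kcne1l, which could enter only as lower genes. With a mean from 6 to under 8, 4 of 9 were lower (background 1.35%) and 1 higher (background 6.99%). None of the 3 genes with a mean of 8 or more passed 1.5-fold (backgrounds 1.43% lower and 9.02% higher). No test was possible, and genes are not replicates of a condition. In RNA from whole muscle, fewer cells of a type and less RNA per cell cannot be told apart.

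**Figure D2:**
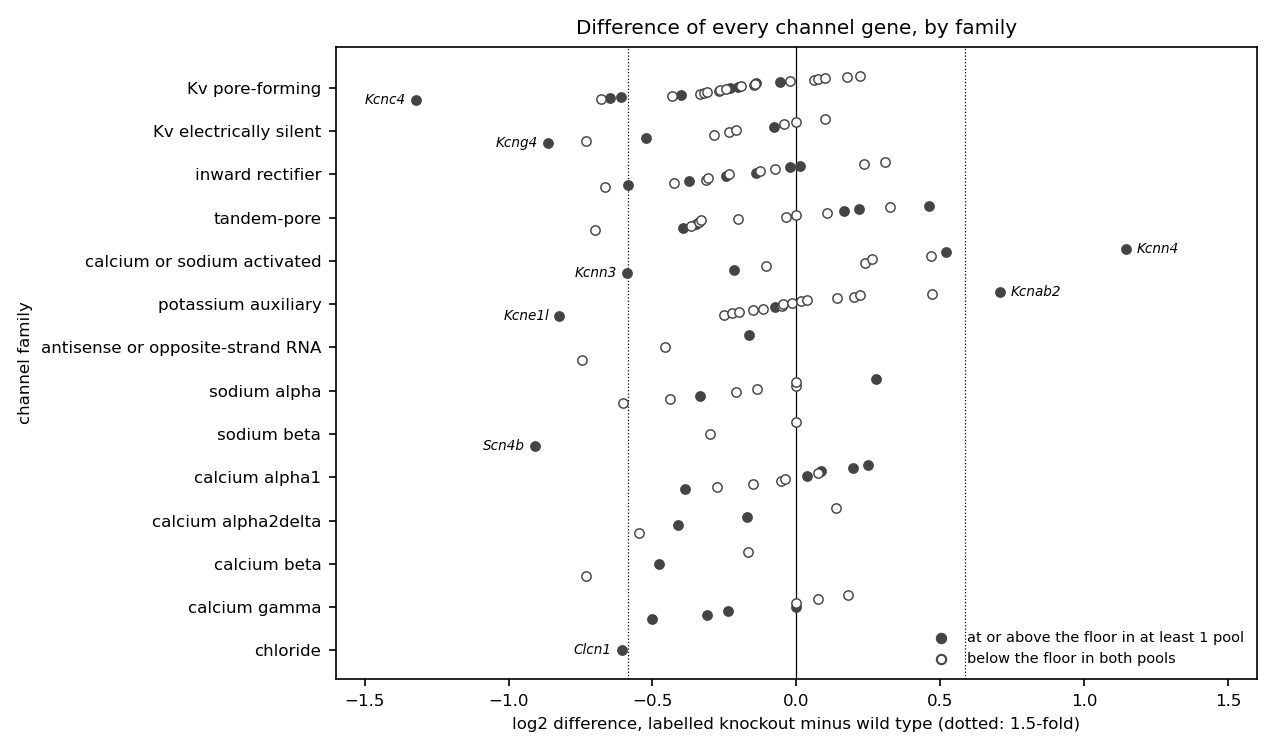
Log2 difference of every channel gene, labelled knockout minus wild type (horizontal axis), by family (vertical axis); filled points are genes at the floor, open points genes below it in both pools, and dotted lines mark 1.5-fold. Kcnc4 lies farthest to the left at -1.32 and Kcnn4 farthest to the right at 1.15, and all 8 filled points of the pore-forming Kv family lie left of 0.

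The pore-forming voltage-gated potassium channels at the floor were all lower in the labelled knockout pool, 8 of 8, with a median of -0.32 and 3 past 1.5-fold. Of all genes at the floor, 44.5% were lower by any amount and 1.90% by 1.5-fold or more. Relative to the median of the sarcomere and energy genes of the fibre, 1 of the 8 was lower by 1.5-fold or more, where 0.636% of all genes at the floor were. Kcnc4, a Shaw-related channel that opens at strongly positive voltages and speeds repolarization, read 5.83 in the labelled knockout pool and 7.15 in the wild type pool. It was 2.50-fold lower, a difference of -1.32, and only 4 of all genes at the floor were lower still, its rank being 5. Kcna7, a Shaker-related channel of heart and skeletal muscle, read 5.70 in the labelled knockout pool and 6.35 in the wild type pool, 1.57-fold lower. Kcnc1, the Shaw-related channel best known from fast-firing neurons, read 5.20 in the labelled knockout pool and 5.81 in the wild type pool, 1.52-fold lower. Kcnq5, a slowly opening channel of the M-current family, read 5.84 in the labelled knockout pool and 6.24 in the wild type pool (-0.40). Kcnh2, which ends the action potential of the heart (-0.23), Kcnh4 (-0.20), Kcnq1, a slow channel of heart and inner ear (-0.14), and Kcna3, a channel of T cells (-0.06), differed by less than the robust SD of 0.28. The other 17 pore-forming Kv genes lay below the floor in both pools.

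The electrically silent Kv subunits form no channel alone and modify the channels of other Kv subunits. All 3 at the floor were lower, where 44.5% of all genes at the floor were. One of them, Kcng4, reached the floor only through the wild type pool and so could enter only as a lower gene. The count of 3 is therefore no support for a common direction. Kcng4 read 4.08 in the labelled knockout pool, below the floor, and 4.95 in the wild type pool, 1.82-fold lower. Kcng2 read 4.97 in the labelled knockout pool and 5.49 in the wild type pool, within 1.5-fold at -0.52. Kcng1 read 4.61 in the labelled knockout pool and 4.69 in the wild type pool (-0.08). Kcng4 and Kcng2 were thus lower by more than the robust SD of 0.28 and Kcng1 by less.

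Inward rectifiers carry potassium at rest and couple the membrane to metabolism. Of 6 at the floor, 5 were lower, where 44.5% of all genes at the floor were, and Kcnj14 was at 0.01. Kcnj12, a strong rectifier that stabilises the resting potential, read 5.25 in the labelled knockout pool and 5.84 in the wild type pool, a difference of -0.59 that lay just past the 1.5-fold limit. Kcnj2, the classical strong rectifier whose loss causes periodic paralysis in humans, read 5.53 in the labelled knockout pool and 5.78 in the wild type pool, a difference of -0.25 within the scatter. Kcnj11, the pore of the ATP-sensitive channel of the fibre, read 6.04 in the labelled knockout pool and 6.41 in the wild type pool (-0.37). Kcnj8, the pore of the ATP-sensitive channel of vessels, differed by only -0.14. The sulphonylurea receptor gene Abcc9, whose protein pairs with these pores, read 7.87 in the labelled knockout pool and 8.45 in the wild type pool (-0.58), which was larger in size than the difference of either pore gene.

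Among potassium channels opened by calcium, the 4 genes at the floor went in both directions. Kcnn4, the intermediate-conductance channel of macrophages, T cells and red cells, read 6.77 in the labelled knockout pool and 5.62 in the wild type pool. It was 2.21-fold higher, the largest difference upward of any channel gene, and its size exceeded those of 98.8% of genes at the floor. Its rank from the highest was 128 among all genes at the floor, so it was less extreme upward than Kcnc4 was downward. Kcnn3, a small-conductance channel known from immature and denervated muscle, read 6.45 in the labelled knockout pool and 7.04 in the wild type pool, and was lower by just over 1.5-fold (-0.59). The 2 relatives thus lay on opposite sides of the 1.5-fold limits. Kcnma1, the large-conductance channel of fibres and smooth muscle, read 6.03 in the labelled knockout pool and 5.51 in the wild type pool (0.52). Its second probe set lay far below the floor, at 1.54 in the labelled knockout pool and 1.74 in the wild type pool. The difference there, -0.20, is within the robust SD of 0.28, so the direction of the gene rests on 1 probe set. Kcnn1 was at -0.22.

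Of the tandem-pore channels, which carry background potassium leak, none of 5 at the floor passed 1.5-fold. Kcnk6, a leak channel known from macrophages, read 6.01 in the labelled knockout pool and 5.55 in the wild type pool (0.46). Kcnk15 read 4.62 in the labelled knockout pool and 5.02 in the wild type pool (-0.39). Kcnk2, a channel opened by stretch and lipids, read 4.42 in the labelled knockout pool and 4.77 in the wild type pool (-0.35). Kcnk3 (0.22) and Kcnk13 (0.16) were within the scatter.

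Auxiliary potassium channel subunits were few at the floor, 3 of 17. Kcnab2, a cytosolic beta subunit that immune and nerve cells use, read 5.72 in the labelled knockout pool and 5.01 in the wild type pool, 1.63-fold higher. Kcne1l, a single-span subunit of the KCNE family, read 4.07 in the labelled knockout pool, below the floor, and 4.89 in the wild type pool, 1.77-fold lower. Kcnmb3, a beta subunit of the large-conductance channel, read 5.03 in the labelled knockout pool and 5.10 in the wild type pool (-0.07). Kcne3 and Kcnab1, for which roles in muscle are known, lay below the floor in both pools. Kcne3 read 3.32 in the labelled knockout pool and 3.57 in the wild type pool, and Kcnab1 3.35 in the labelled knockout pool and 2.87 in the wild type pool. Of the opposite-strand RNAs, Kcnd3os reached the floor, with 5.31 in the labelled knockout pool and 5.47 in the wild type pool (-0.17).

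The voltage sensor of excitation-contraction coupling was lower in each of its 4 measured subunits, none past 1.5-fold. Cacna1s, the pore and voltage-sensing subunit, read 8.95 in the labelled knockout pool and 9.34 in the wild type pool (-0.39). Cacnb1, the cytosolic subunit that brings it to the tubule membrane, read 7.65 in the labelled knockout pool and 8.13 in the wild type pool (-0.48). Cacng1, the skeletal gamma subunit, read 8.94 in the labelled knockout pool and 9.44 in the wild type pool, the largest difference of the 4 at -0.50. Cacna2d1, the extracellular subunit, read 9.08 in the labelled knockout pool and 9.49 in the wild type pool, and its 2 probe sets gave the same difference of -0.41. The 4 differences thus spanned -0.50 to -0.39, and each exceeded in size at least 80.0% of those of all genes at the floor. Cacng6, another skeletal gamma subunit, was not analysed here.

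Calcium channel genes outside this complex showed no common direction. Cacna1d, an L-type channel of pacemaker and hair cells, read 4.77 in the labelled knockout pool and 4.52 in the wild type pool (0.25). Cacna1a, the P/Q-type channel of nerve endings, read 5.19 in the labelled knockout pool and 4.99 in the wild type pool (0.20). With Cacna1c, the alpha1 subunit of heart and smooth muscle (0.09), and the T-type channel Cacna1g (0.04), these 4 alpha1 genes were above 0, none by more than the robust SD, while Cacna1s was below 0. Cacna2d4 read 4.68 in the labelled knockout pool and 4.85 in the wild type pool (-0.17). Of the gamma relatives that traffic glutamate receptors in brain, 3 reached the floor, and none passed 1.5-fold. Cacng4 read 4.64 in the labelled knockout pool and 4.95 in the wild type pool (-0.31), Cacng7 5.23 in the labelled knockout pool and 5.47 in the wild type pool (-0.24), and Cacng2 4.54 in both pools. The second probe set of Cacng2 lay below the floor, at 2.88 in the labelled knockout pool and 3.10 in the wild type pool (-0.22). Cacng1 and Cacng4 are neighbours in the RefSeq gene order, and Cacng5, next to Cacng4, lay below the floor with equal values on both arrays.

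Clcn1, the chloride channel whose loss causes myotonia, read 5.98 in the labelled knockout pool and 6.58 in the wild type pool, 1.52-fold lower. It is the only channel gene past the limit whose promoter window, printed above, held a MEF2 motif. Any part of that motif in the difference was not tested.

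Sodium channels were measured only in part. Scn4a, the main sodium channel of the adult fibre, was not analysed here. Scn4b, a beta subunit, read 4.43 in the labelled knockout pool, just above the floor, and 5.34 in the wild type pool, 1.88-fold lower. Scn7a, a salt-sensing relative of glia and other cells that is not gated by voltage in the usual way, read 7.80 in the labelled knockout pool and 7.53 in the wild type pool (0.28). Scn2a reached the floor through 1 of its 14 probe sets (4.79 in the labelled knockout pool, 5.13 in the wild type pool). The mean of all 14 was 2.89 in the labelled knockout pool and 2.97 in the wild type pool, below the floor, so its call as measurable rests on that probe set.

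**Figure D3:**
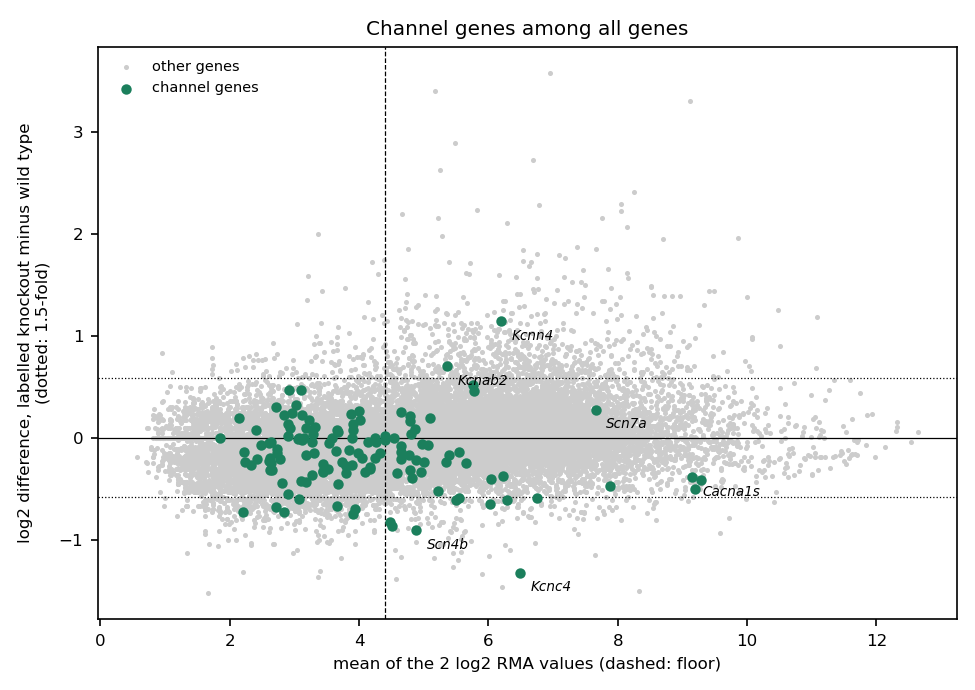
Log2 difference, labelled knockout minus wild type (vertical axis), against the mean of the 2 log2 RMA values (horizontal axis) for the 128 channel genes (green) and all other genes (grey); dotted lines mark 1.5-fold and the dashed line the floor. Kcnc4 lies at the lower edge of the grey cloud, and the cloud reaches farther upward than downward.

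Grouped by the cells known to use them, channels of the adult fibre were mostly lower in the labelled knockout pool, and those of immune cells lay on both sides of 0. Over all genes at the floor, 44.5% were lower and 53.3% higher by any amount, and 1.90% were lower and 6.45% higher by 1.5-fold or more. Of 18 genes listed for the adult fibre membrane, 15 were measured and 13 were at the floor. Of these 13, 12 were lower in the labelled knockout pool, 5 of them by 1.5-fold or more (Kcnc4, Kcna7, Kcnc1, Clcn1 and Kcnj12). Kcnma1, whose direction rests on 1 probe set, was higher. The median was -0.48. Of 10 genes listed for immune cells, 7 were at the floor, and 5 of these were higher by the probe set used. Of all genes at the floor 53.3% were higher, and 7 genes are few to set beside that share. Kcnn4 and Kcnab2 passed 1.5-fold, and none passed it downward. Their median was 0.46 at the floor and 0.05 over all 10. When the probe sets of a gene were averaged, Kcnma1 lay below the floor and the median of the other 6 was 0.31. Channels listed for immature or denervated muscle had 4 genes at the floor and a median of -0.30, with Kcnn3 the only one past 1.5-fold. Channels of vessels had a median of 0.09 over 7 genes at the floor, or -0.03 over all 12 measured, with Kcnn4 higher and Kcnn3 lower. Of 28 measured channels of neurons and Schwann cells, 6 reached the floor, none passed 1.5-fold, and the median of the 6 was -0.12. When the probe sets of a gene were averaged, Scn2a and Cacng2 lay below the floor and the median of the other 4 was -0.02. Of genes at the floor, Kcnj2, Kcnma1, Kcnn3 and Kcnn4 stand in more than 1 list.

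Markers of the cells themselves were measured on the same arrays. For comparison, 44.5% of all genes at the floor were lower and 53.3% higher by any amount. By 1.5-fold or more, 1.90% were lower and 6.45% higher. Macrophage markers were higher in 18 of 18 measured genes, 15 past 1.5-fold, with a median difference of 0.93, and all 18 reached the floor. Their values ran from 5.62 to 11.67 (mean 8.31) in the labelled knockout pool and from 4.90 to 10.49 (mean 7.25) in the wild type pool. Among them Msr1, a scavenger receptor, read 7.34 in the labelled knockout pool and 5.24 in the wild type pool, and Itgam, an integrin of myeloid cells, 7.99 in the labelled knockout pool and 6.20 in the wild type pool. The part of these markers in the values of Kcnn4, Kcnab2 and Kcnk6 was not tested. Of 9 measured T and B cell markers none reached the floor (2.09 to 4.20 in the labelled knockout pool, 2.09 to 4.29 in the wild type pool). Sarcomere and energy genes of the fibre were lower in 23 of 25, with a median of -0.19, and Myh2, a fast myosin, had the lowest difference at -0.62 (8.78 in the labelled knockout pool, 9.40 in the wild type pool). Of the 46 channel genes, 5 (Kcnc4, Scn4b, Kcng4, Kcne1l and Kcna7) lay below Myh2, of which Kcng4 and Kcne1l could enter only as lower genes. Another 10 lay above Des, the fibre gene with the highest difference (0.07). Of these 10, Cacna1c (0.09) lay nearest to Des, at rank 4931 from the highest among all 11787 genes at the floor. Many genes of any kind thus lay above Des, and a place there does not set these channels apart. Kcna7, the nearest to Myh2 of the 5, had rank 140 from the lowest among all 11787 genes at the floor. Relative to the fibre median of -0.19, Kcnc4 was at -1.14, while Kcna7 (-0.46), Kcnc1 (-0.42), Clcn1 (-0.42), Kcnn3 (-0.40) and Kcnj12 (-0.40) were within 1.5-fold, and the part of the fibre share of the RNA in their differences was not tested. Of the other cell types, endothelial markers had a median of -0.05 with Vwf at 6.32 in the labelled knockout pool and 5.48 in the wild type pool (0.84). Mural markers had a median of 0.06 with Pdgfrb at 8.68 in the labelled knockout pool and 8.03 in the wild type pool (0.65), and Lmod1 at 4.08 in the labelled knockout pool and 4.67 in the wild type pool (-0.59). Lmod1 reached the floor only through the wild type pool and so could enter only as a lower gene. Schwann and axon markers had a median of 0.04 with Egr2 at 6.01 in the labelled knockout pool and 5.11 in the wild type pool (0.91). Fibroblast markers had a median of 0.12 with Thy1 at 6.94 in the labelled knockout pool and 6.32 in the wild type pool (0.62). Young fibre markers had a median of -0.06, with Myh8, the neonatal myosin, at 10.10 in the labelled knockout pool and 10.73 in the wild type pool (-0.63) and Runx1 at 8.42 in the labelled knockout pool and 7.83 in the wild type pool (0.59).

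**Figure D4:**
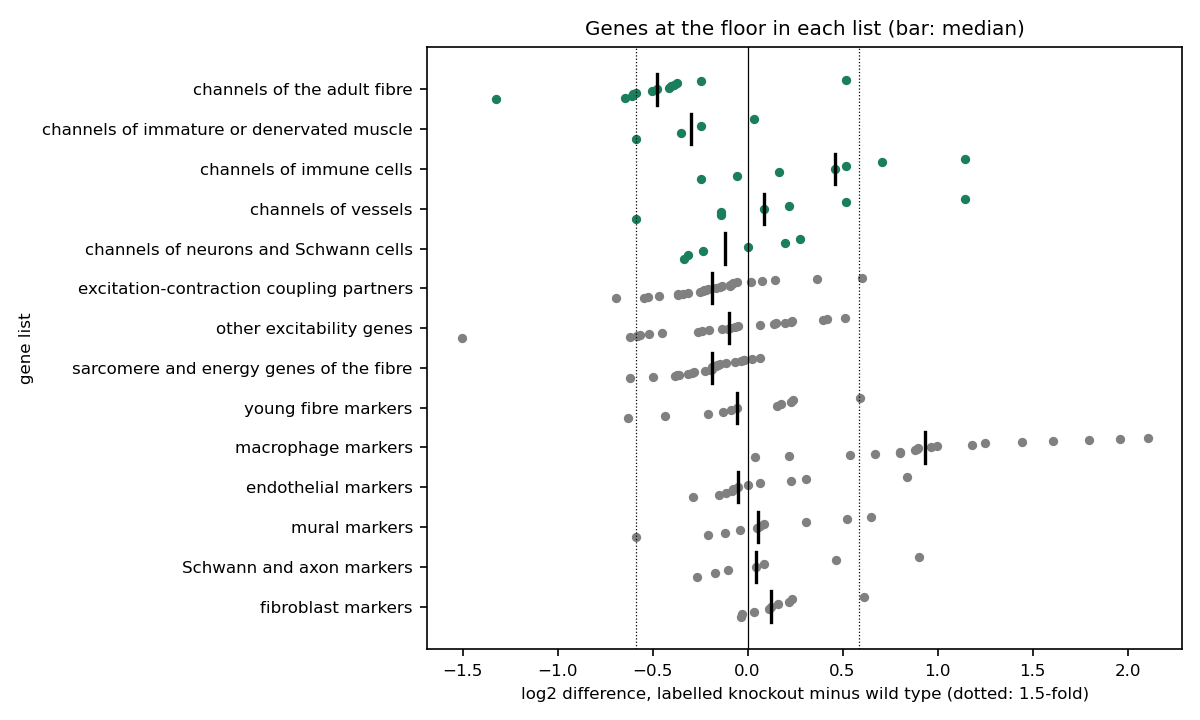
Log2 difference, labelled knockout minus wild type (horizontal axis), of the genes at the floor in each list (vertical axis), channel lists in green and partner or marker lists in grey; bars are medians and dotted lines mark 1.5-fold. The median of adult fibre channels (-0.48) lies left of that of the sarcomere and energy genes (-0.19), and macrophage markers (0.93) lie farthest right. These 2 fibre lists lie at unlike levels, with wild type means over measured genes of 6.57 for the channels and 11.13 for the sarcomere and energy genes. The part of level in the gap between their medians was not tested.

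Among genes that work with these channels, medians were nearer 0 than that of the adult fibre channels. Of 26 measured partners of excitation-contraction coupling, all at the floor, 21 were lower (background 44.5%) and 5 higher (background 53.3%), with a median of -0.18. Past 1.5-fold there was 1 lower (background 1.90%) and 1 higher (background 6.45%). Mrln, a micropeptide that restrains the calcium pump, was 1.62-fold lower (5.89 in the labelled knockout pool, 6.58 in the wild type pool), and Slc8a1, a sodium-calcium exchanger, 1.52-fold higher (5.30 in the labelled knockout pool, 4.70 in the wild type pool). Hrc, a calcium-binding protein of the sarcoplasmic reticulum, read 8.61 in the labelled knockout pool and 9.15 in the wild type pool (-0.54). Stac3, which couples the voltage sensor to the release channel, was at -0.52 and Ryr1, the release channel, at -0.31, both named after their values were seen. Of 35 measured genes of membrane excitability, 24 reached the floor. Of these, 2 were lower by 1.5-fold or more (background 1.90%) and none was higher by as much (background 6.45%). Their median was -0.10 over the 24 at the floor, or -0.23 over all 35 measured. Atp1b4, a muscle protein related to sodium pump beta subunits, read 7.58 in the labelled knockout pool and 9.08 in the wild type pool, 2.84-fold lower. Lrrc38, whose protein modifies the large-conductance channel, read 4.34 in the labelled knockout pool, below the floor, and 4.96 in the wild type pool, 1.54-fold lower. It reached the floor only through the wild type pool and so could enter only as a lower gene.

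The 82 channel genes below the floor in both pools had differences from -0.75 to 0.47 with a median of -0.13. Of these, 53 were lower, 23 higher and 6 equal, and 7 (8.54%) passed 1.5-fold downward and none upward. Among all 8151 genes below the floor in both pools, 4.83% passed it downward and 1.07% upward. Values this low hold little signal. Of the 28 measured channels of neurons and Schwann cells, 22 were among them. For 7 channel genes the values on both arrays were equal to the last digit, as they were for 1961 of 35557 probe sets.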

How the data were processed

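The deposited table holds 1 log2 value per probe set and array, normalised by the authors: the submitters' processing notes name RMA and Affymetrix Expression Console. The sources used here give no versions, settings or genome build. RMA equalises the distributions of the arrays: after sorting, the 2 columns differ by at most 0.139, so a shift shared by most genes cannot be seen. The precision is limited by 2 arrays, 1 per genotype.

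Of 35557 probe sets, 21789 had 1 symbol in the platform annotation, 1621 several and 12147 none. All 128 channel genes had their gene identifier in RefSeq (GRCm38.p6), and 11 channel symbols of RefSeq were not analysed here. Log2 differences were taken with pandas 2.3.3 and numpy 2.4.6 under Python 3.11.15, and counted past 1.5-fold (0.585 on the log2 scale) and 2-fold, after a check of the counting on simulated data. No test was run. Promoter sequences are RefSeq's. The members and all gene lists were chosen with earlier results of these data known. Genes named are members past 1.5-fold, the adult fibre list, the 3 largest differences of each family or list, and others where said. Alternatives were median-centred differences, a loess trend (span 0.3, statsmodels 0.14.6) removed, probe set means, differences relative to the fibre genes, other floors, 2-fold, pore-forming subunits alone and shared probe sets. A planned search of protein sequences was not run, since no protein table was used here.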

Additional observations from a re-analysis of the deposited data

How the results depend on the processing

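The count of 9 channel genes at least 1.5-fold lower and 2 higher, and the median of -0.23, moved under these settings. Relative to the fibre genes, 4 were lower and 4 higher (backgrounds 0.636% and 12.5%) and the median was -0.039. Kcng4 and Kcne1l, which could enter only as lower genes, were among the 4 lower. With no floor, 16 were lower (background 3.10%). With a higher floor, the 75th percentile (6.18), 4 were lower and 1 higher of 12, and the median was -0.44. For scale, of all genes with a mean from 6 to under 8, 1.35% were lower and 6.99% higher by 1.5-fold or more. With a mean of 8 or more, 1.43% were lower and 9.02% higher. At 2-fold, 1 was lower (background 0.187%) and 1 higher (background 1.70%). With pore-forming subunits alone, 1 was higher, where 6.45% of all genes at the floor were, since Kcnab2 is auxiliary. The count of lower genes also fell there, though within 1.5 times, since Scn4b, Kcng4 and Kcne1l do not form pores of their own. In the other 18 recomputations the counts stayed within 1.5 times and the median within 0.1. Of single channel genes, 5 called ones (Kcna7, Kcnc1, Clcn1, Kcnn3 and Kcnj12) lost 1.5-fold and 2 (Kcnma1 at 0.71 and Kcnk6 at 0.65) gained it, all relative to the fibre genes, which shift every difference by 0.19 by construction. Medians of families and lists changed sign in 16 recomputations, among them calcium- or sodium-activated channels (0.15, or -0.22 when probe sets were averaged) and excitation-contraction coupling partners (-0.18, or 0.00 relative to the fibre genes). No paired analysis was possible because each genotype has 1 array.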
